A study of Mus musculus with 2 samples.

Results

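The 9 genes described here encode the fast-inactivating Kv4 potassium channel and its partner proteins. They were Kcnd1, Kcnd2 and Kcnd3 (the pore-forming α subunits Kv4.1, Kv4.2 and Kv4.3), Kcnip1, Kcnip2, Kcnip3 and Kcnip4 (the KChIP subunits), and Dpp6 and Dpp10 (the dipeptidyl-peptidase-like subunits), 9 of 21937 gene features of the matrices. The set was chosen by the Kcnd2 level in founders against F1, which was already known, so the difference between these generations is given below only as a description. All 9 were found under 1 symbol each.

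The cells came from mouse embryos at E11.5 that carried EGFP under the ubiquitous CAG promoter, linked to a DNA barcode and inserted by the piggyBac transposon. F0_8 and F0_9 were founder embryos, grown from zygotes of C57BL/6J eggs and sperm that had received mPBase transposase mRNA by electroporation and then the donor plasmid by pronuclear injection. F1_1 was a single F1 embryo, and F1_mix pooled the cells of 2 F1 embryos to imitate a mosaic, so all 4 suspensions carried the transgene and there was no group without it. The suspensions were tagged with CellPlex oligos and run as 1 droplet library of 3′ tags, so each generation had 2 suspensions and none had a technical repeat. The labels do not name the litters of the suspensions, and generation cannot be told apart from embryo or parent.

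The suspensions had 1310 to 1599 annotated cells, 16052917 to 19160116 gene UMIs (unique molecular identifiers, each counting 1 captured molecule) and medians of 10880 to 13267 gene UMIs per cell. In the 9 deep types defined below the founders were shallower, with medians of 12557 and 12868 in F0_8 and F0_9 against 15511 and 14922 in F1_1 and F1_mix. No barcode was shared between suspensions. Cell types are the deposited annotation, which was made from expression, so differences between types are descriptions. Among 16 types, 4 were shallow, with a median depth more than 3 times below that of all cells: Endodermal Progenitor, Foregut, Hepatocyte and Midgut had medians of 722 to 1674 gene UMIs and a median mitochondrial share of 23.0% to 55.9%, against 1.86% to 2.76% in the 9 deep types that had at least 20 cells in every suspension. Some labels went against the marker genes. Neuron markers (Tubb3, Elavl3, Elavl4, Stmn2, Snap25, Map2) summed to between 81.2 and 94.7 UMIs per 10000 in the type labelled Neuroectoderm/Glia and to between 68.5 and 78.5 in CNS Neuron, and neural progenitor markers reached at most 1.25 in Neuroectoderm/Glia against 24.8 to 31.4 in Neuronal Progenitor. Epithelial markers stayed at or below 0.119 in Foregut and 0.366 in Midgut against 12.2 to 18.7 in Epithelial Cell, whereas neuron markers reached 27.2 to 40.2 in Midgut. The deposited names are kept below as labels.

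Kv4 channels carry the subthreshold A-type potassium current, which opens on depolarisation, inactivates within milliseconds and shapes firing and back-propagating action potentials in neurons and early repolarisation in the heart. KChIP proteins are calcium-binding EF-hand proteins that attach to the N terminus of the α subunit and promote its transport to the membrane, and DPP6 and DPP10 are single-pass membrane proteins that speed the gating of the channel. Kcnip3 is also known as the calcium-dependent transcriptional repressor DREAM.

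Kcnd2 gave more UMIs than any other member. It had 8044 of the 16486 UMIs of the 9 genes, in 1363 of 5678 cells, and 88.8% of those of the 3 Kcnd genes, whereas Kcnd3 had 974 UMIs and Kcnd1 had 45. As a mean over the 9 deep types, Kcnd2, Kcnd3 and Kcnd1 read 1.19 ± 0.594, 0.148 ± 0.0222 and 0.00657 ± 0.00323 UMIs per 10000 gene UMIs (SD, n = 4 suspensions). Levels were also divided by gene length. Counts of 3′ tags need not rise with gene length, and the sources do not say whether intronic reads were counted. The divided values are therefore only a second description. Per 100 kb of gene and per 10000 gene UMIs, as a mean over the 9 deep types, Kcnd2 reached 0.231 ± 0.116 (SD, n = 4 suspensions), against 0.0667 ± 0.00998 for Kcnd3 and 0.0452 ± 0.0222 for Kcnd1. The range of Kcnd2 on this scale, 0.129 to 0.356, lay above the ranges of the other 2 genes.

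Kcnd2 spans 514 kb of chromosome 6 (GRCm38.p6, 21215346 to 21729805), Kcnd3 222 kb of chromosome 3 (105451890 to 105674002) and Kcnd1 14.5 kb of chromosome X (7823759 to 7838278). Promoter entries in RefSeq (GRCm38.p6) matched 8 of the 9 members. The 250 bases before the start of Kcnd2 and before the 2 listed starts of Kcnip4 are shown because these 2 genes were the members called between the generations below. Capitals mark GGGCGG (GC box) and CANNTG (E box), searched on both strands.
Kcnd2, chr6:21215096-21215345, plus strand: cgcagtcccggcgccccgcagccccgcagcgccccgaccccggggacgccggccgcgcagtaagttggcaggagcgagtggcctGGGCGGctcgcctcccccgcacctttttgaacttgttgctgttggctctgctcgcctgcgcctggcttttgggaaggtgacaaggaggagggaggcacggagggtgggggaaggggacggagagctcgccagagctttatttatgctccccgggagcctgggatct
Kcnip4, chr5:49285660-49285909, minus strand: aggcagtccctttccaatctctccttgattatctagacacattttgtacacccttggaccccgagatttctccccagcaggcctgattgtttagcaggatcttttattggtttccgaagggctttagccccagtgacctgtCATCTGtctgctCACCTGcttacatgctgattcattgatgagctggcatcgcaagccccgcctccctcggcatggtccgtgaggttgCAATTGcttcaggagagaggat
Kcnip4, chr5:48599683-48599932, minus strand: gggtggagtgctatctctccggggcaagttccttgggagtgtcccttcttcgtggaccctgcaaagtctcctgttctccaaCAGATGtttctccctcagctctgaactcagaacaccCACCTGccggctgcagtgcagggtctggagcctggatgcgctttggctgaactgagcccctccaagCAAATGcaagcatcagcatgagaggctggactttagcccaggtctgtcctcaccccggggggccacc
The Kcnd2 window held 1 GGGCGG, which 32.7% of 32851 promoter windows of this length hold, no CANNTG, which 66.2% hold, and 22 CpG dinucleotides against a median of 6. Each Kcnip4 window held 3 CANNTG and no GGGCGG, with 6 and 5 CpG dinucleotides. TATAAA, held by 12.4% of the windows, was in none of the 3. A match is a letter match only.

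Kcnd2 was found in neural, mesenchymal and epithelial types and was nearly absent from blood cells. On the scale of UMIs per 10000 gene UMIs, the mean over the 4 suspensions was 2.78 ± 1.54 (SD) in Neuroectoderm/Glia, the highest of the deep types, and 1.75 ± 0.786 in Gut Mesenchyme/Amniotic Mesoderm. Neuronal Progenitor, Epithelial Cell, Mesodermal Progenitor and Chondrocyte followed at 1.43, 1.25, 1.24 and 1.22. Levels were lower in CNS Neuron (0.420 ± 0.200), Myoblast/Cardiomyocyte (0.355 ± 0.138) and Ependymal Cell (0.248 ± 0.184). Erythroblast, Hematoendothelial Progenitor/Endothelium and Erythrocyte had 33, 5 and 2 Kcnd2 UMIs and means of 0.0611, 0.0381 and 0.0101. The shallow Foregut, Hepatocyte and Midgut lay at 3.86 ± 1.69, 3.81 ± 1.78 and 3.35 ± 1.18, and Endodermal Progenitor at 0.692. Every neighbouring pair in this order overlapped in its range over suspensions. Between distant types the ranges were apart: the lowest suspension of Neuroectoderm/Glia, 1.58, lay above the highest of CNS Neuron, 0.617, and of Myoblast/Cardiomyocyte, 0.455.

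**Figure D1:**
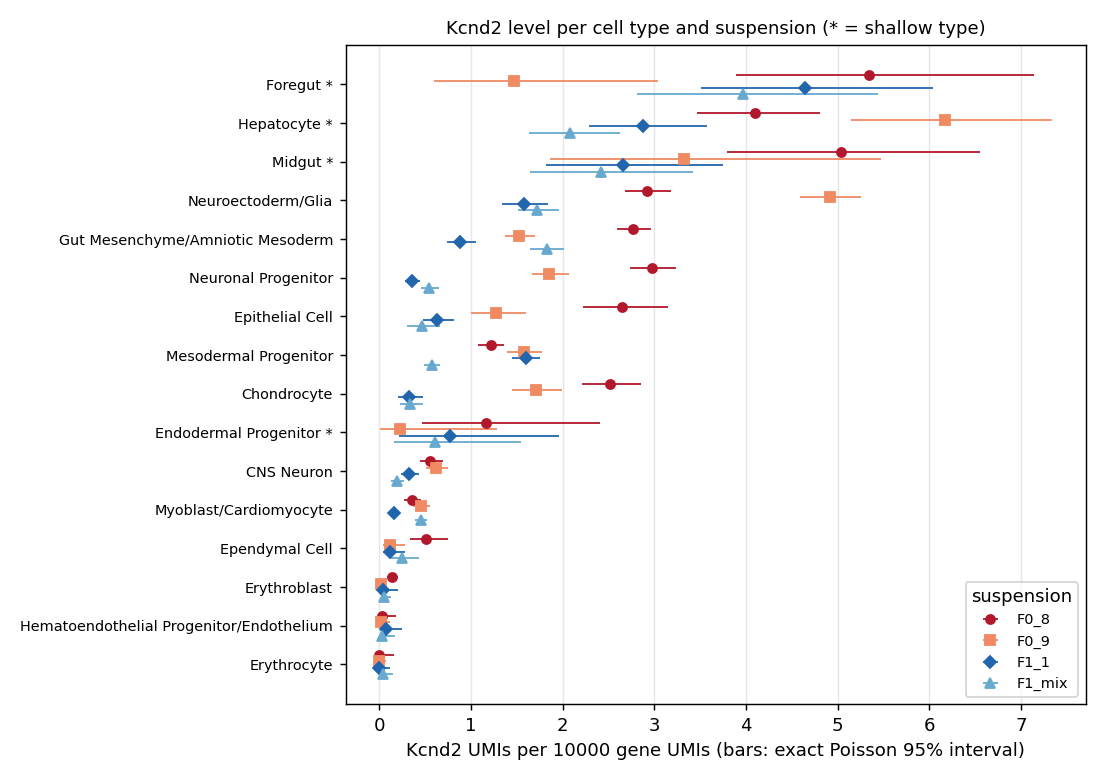
Kcnd2 UMIs per 10000 gene UMIs (x axis) in each annotated cell type (y axis) and suspension (colour and marker), with exact Poisson 95% intervals that cover counting error only. The 2 founder suspensions (red and orange) lie above the 2 F1 suspensions (blues) in Neuroectoderm/Glia, Neuronal Progenitor, Epithelial Cell, Chondrocyte and CNS Neuron, and the red blood cell types lie near 0.

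Kcnd3 was highest in Midgut, Neuroectoderm/Glia and, among the other deep types, CNS Neuron. In Neuroectoderm/Glia it read 0.833, 0.567, 0.788 and 0.343 UMIs per 10000 in F0_8, F0_9, F1_1 and F1_mix, and in CNS Neuron 0.277, 0.393, 0.183 and 0.195. The other deep types had means of at most 0.119. In Midgut it reached 1.67 ± 0.478, and there the lowest suspension, 1.08, exceeded the highest of Neuroectoderm/Glia, 0.833. Kcnd2 accordingly made up 60.1% of the Kcnd UMIs in CNS Neuron, 67.5% in Midgut and 82.2% in Neuroectoderm/Glia, against 92.6% to 96.6% in Chondrocyte, Epithelial Cell, Gut Mesenchyme/Amniotic Mesoderm, Hepatocyte, Mesodermal Progenitor, Myoblast/Cardiomyocyte and Neuronal Progenitor. Kcnd1 was seen in 42 cells, 39 of them with 1 UMI, and no order between types could be read from it.

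Of the KChIP genes, Kcnip1 and Kcnip4 were highest in different types. Kcnip1 (364 kb of chromosome 11) was highest in Neuroectoderm/Glia, with 0.828, 1.41, 0.475 and 0.919 UMIs per 10000 in F0_8, F0_9, F1_1 and F1_mix, and next among the deep types in CNS Neuron, with 0.462, 0.236, 0.366 and 0.326. All other deep types had means of at most 0.137. Kcnip4 (1136 kb of chromosome 5) was low in CNS Neuron, where its mean was 0.0969, and highest among the deep types in Epithelial Cell, with 0.382, 1.94, 0.654 and 0.609. Gut Mesenchyme/Amniotic Mesoderm (0.410 ± 0.283) and Ependymal Cell (0.370 ± 0.288) followed, with ranges that overlapped that of Epithelial Cell. Kcnip4 held 17.7% of the KChIP UMIs in CNS Neuron and 22.9% in Neuroectoderm/Glia, against 70.4% in Chondrocyte, 78.4% in Gut Mesenchyme/Amniotic Mesoderm and 84.0% in Epithelial Cell. Single cells carried much of this: 1 cell held 75 of the 111 Kcnip4 UMIs of F0_9 in Epithelial Cell, and in Chondrocyte 1 cell held 26 of the 31 of F1_1 and another 27 of the 28 of F1_mix.

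Kcnip3 and Kcnip2, which lie on chromosomes 2 and 19 and are short (65.6 and 24.1 kb), were sparse. Kcnip3 had 277 UMIs, 86.2% of its positive cells had 1 UMI, and it was highest among the deep types in CNS Neuron, with 0.121, 0.115, 0.0764 and 0.109 UMIs per 10000. Kcnip2, the KChIP best known from the adult heart ventricle, had 99 UMIs in all, 24 of them in Neuroectoderm/Glia and 6 in Myoblast/Cardiomyocyte.

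Dpp6 (910 kb of chromosome 5) and Dpp10 (1514 kb of chromosome 1) also split by cell type. Dpp6 read 2.16, 1.87, 1.74 and 1.53 UMIs per 10000 in Neuroectoderm/Glia and 1.81, 1.14, 1.37 and 0.979 in CNS Neuron for F0_8, F0_9, F1_1 and F1_mix, and its lowest value in either type lay above the highest in Neuronal Progenitor, 0.756. The shallow Midgut and Foregut had 3.46 ± 0.956 and 2.36 ± 1.04. Dpp10 read 0.430, 0.457, 0.0505 and 0.664 in Neuroectoderm/Glia, so that F1_1 stood below the other 3 suspensions, and 1 cell held 42 of the 91 UMIs behind the F1_mix level. Its range there overlapped that of Ependymal Cell, 0.144 to 0.473. In CNS Neuron and Neuronal Progenitor it was close to absent, with 12 and 5 UMIs, and Dpp6 took 98.5% and 99.0% of the Dpp UMIs there. In Chondrocyte this was turned round, since Dpp6 took 24.4%.

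**Figure D2:**
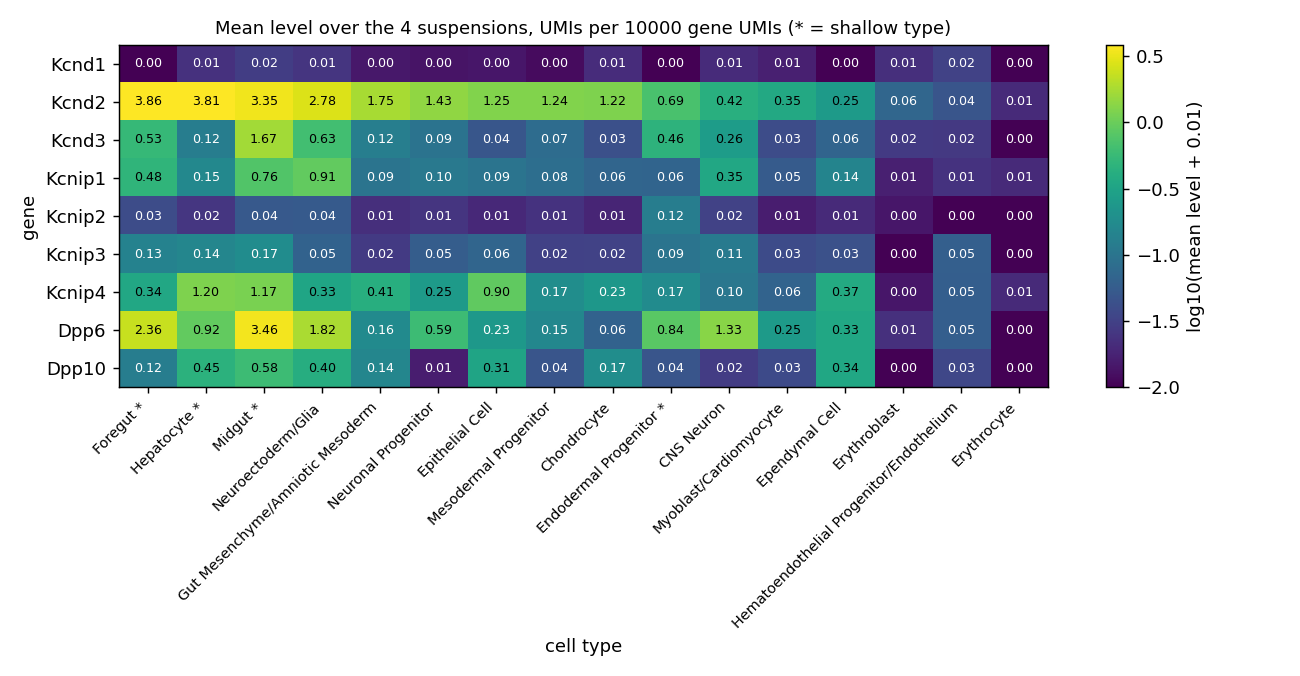
Mean level over the 4 suspensions of each member (rows) in each annotated cell type (columns, ordered by Kcnd2), with the value in UMIs per 10000 gene UMIs printed in each field and the colour as log10 of the level plus 0.01. Kcnd2 is spread over neural, mesenchymal and epithelial types, whereas among the deep types Kcnd3, Kcnip1 and Dpp6 are highest in Neuroectoderm/Glia and CNS Neuron.

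Within a type, Kcnd2 was unevenly spread over cells. Of the 1363 cells with a UMI, 493 had 1, whereas 225 had 10 or more and held 61.6% of all Kcnd2 UMIs, and the highest cell had 120. In Neuronal Progenitor, 51.7%, 39.6%, 20% and 21.7% of cells of F0_8, F0_9, F1_1 and F1_mix had a UMI, where Poisson counting from each cell's depth and the pooled level of its suspension gives 95.3%, 88.7%, 40.8% and 54.2%. The 9 deep types together had 34.9%, 32.2%, 19.3% and 23.1% observed against 81.5%, 76.4%, 50.8% and 58.1%. Kcnip4 and Dpp10 were also concentrated, with 38 and 16 cells of 10 or more UMIs that held 54.2% and 40.3% of their UMIs. Kcnip3, with 55 to 65 UMIs per suspension in these types, was too sparse to tell even from uneven spread. In the deep types, cells with 10 or more Kcnd2 UMIs had a median depth of 14868 gene UMIs against 13776 in cells without one.

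**Figure D3:**
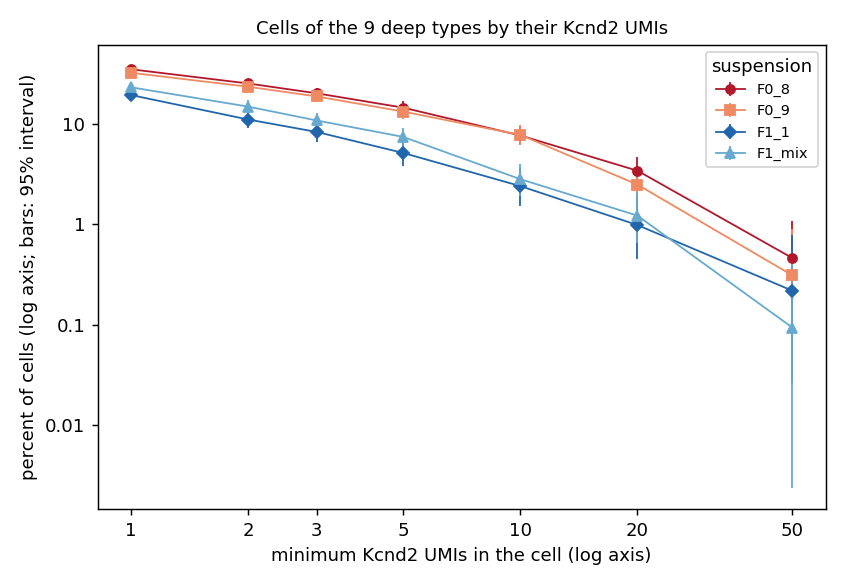
Percent of the cells of the 9 deep types (y axis, log scale) that hold at least the number of Kcnd2 UMIs on the x axis (log scale), for each suspension, with exact Clopper-Pearson 95% intervals. The founders lie above the F1 suspensions for each minimum from 1 to 20 UMIs, with 7.66% and 7.76% of cells at 10 or more UMIs against 2.40% and 2.82%.

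To compare shares at equal depth, cells were thinned to 5000 gene UMIs and cells with fewer were left out. This left out 21, 10, 13 and 10 cells of the deep types in F0_8, F0_9, F1_1 and F1_mix. Then 25.6% (95% interval 23.0% to 28.3%) of F0_8 cells and 24.9% (22.2% to 27.8%) of F0_9 cells of the deep types had a Kcnd2 UMI, against 12.1% (10.0% to 14.4%) in F1_1 and 14.5% (12.4% to 16.8%) in F1_mix. As background, 6.86% of 204 Erythroblast and Erythrocyte cells, whose median depth was 27492, had a Kcnd2 UMI at full depth and 0.990% after thinning. Such intervals cover counting error over cells of 1 suspension only.

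The subunits of the complex were compared in single cells at this equal depth. Over the deep types, 17.7% of the 772 cells with a Kcnd2 UMI also had a KChIP UMI, against 12.6% of the 3203 cells without. A Dpp UMI was found in 26.4% and 16.3%, and both a KChIP and a Dpp UMI in 7.90% and 3.59%. Over the suspensions F0_8, F0_9, F1_1 and F1_mix, the KChIP shares were 18.8%, 22.7%, 9.17% and 14.4% in cells with Kcnd2 and 13.5%, 13.5%, 11.9% and 11.8% in cells without, so F1_1 ran the other way. The Dpp shares were 26.8%, 31.1%, 23.9% and 20.3% with and 19.0%, 17.7%, 15.0% and 14.1% without, higher in 4 of 4. In Neuroectoderm/Glia the pooled shares with a KChIP UMI were 36.9% (29.8% to 44.4%) and 28.7% (23.7% to 34.1%) and those with a Dpp UMI 58.1% (50.5% to 65.4%) and 47.7% (42.1% to 53.5%), each pair with overlapping intervals. There F1_1 ran the other way for KChIP (20% with and 33.3% without) and F1_mix for Dpp (34.4% and 41.3%). In Neuronal Progenitor a Dpp UMI was found in 16.8% of cells with Kcnd2 and 17.3% of cells without, and in CNS Neuron in 49.2% (36.4% to 62.1%) and 31.4% (27.2% to 35.9%). The CNS Neuron gap lay in F0_9 (50% and 28.9%) and F1_mix (9 of 12 cells, and 27.9%), with shares of 42.1% and 39.6% in F0_8 and 33.3% and 30.9% in F1_1. The KChIP share was lower with Kcnd2 than without in Epithelial Cell (12.5% and 18.3%), Chondrocyte (4.65% and 7.17%), Myoblast/Cardiomyocyte (3.70% and 5.80%) and Mesodermal Progenitor (9.89% and 10.4%), and so was the Dpp share in Epithelial Cell (4.17% and 12.7%), each from 1 to 9 positive cells among those with Kcnd2. By contrast, the Dpp share was higher with Kcnd2 in Mesodermal Progenitor (15.4% and 6.44%), in each suspension, and in Chondrocyte (14.0% and 5.98%). The KChIP share was higher with Kcnd2 in Neuronal Progenitor (14.7% and 10.5%). Founders supplied most of the cells with Kcnd2, and Neuroectoderm/Glia supplied 179 of the 772 with it and 310 of the 3203 without, so the pooled shares mix generation and cell type with co-detection. These intervals treat cells of 4 suspensions as one sample and cover counting error only, and a missing UMI at this depth does not show that a subunit was not expressed.

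Droplets outside the suspensions with 100 to 300 gene UMIs gave the free or broken-cell RNA of the library. Kcnd2 made up 2.99 UMIs per 10000 in 53828 such droplets, above its mean in each of the 9 deep types and below the means of the shallow Foregut, Hepatocyte and Midgut. Dpp6 stood at 1.85, Kcnip4 at 0.535, Kcnd3 at 0.462, Kcnip1 at 0.357 and Dpp10 at 0.312. After removal of the UMIs that these droplets would give at 10% of each cell's UMIs, the Kcnd2 level in CNS Neuron was 0.285, 0.354, 0.0245 and -0.122 in F0_8, F0_9, F1_1 and F1_mix, whereas in Neuroectoderm/Glia it was 2.92, 5.13, 1.42 and 1.58. In Chondrocyte it was 2.46, 1.56, 0.0238 and 0.0389 and in Neuronal Progenitor 2.98, 1.73, 0.0637 and 0.275, so the F1 levels of these types fell towards 0 and a ratio of founders to F1 there depends on the share of free RNA assumed. A share of 10% is more than some cells can hold if free RNA has 1 makeup in the library: before any subtraction Kcnd2 stood at 0.0611 in Erythroblast, 0.0101 in Erythrocyte, 0.189 in CNS Neuron of F1_mix and 0.160 in Myoblast/Cardiomyocyte of F1_1, each below 10% of its level in the droplets.

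The comparison that chose the members set the founders against F1. Over the 9 deep types with equal weight, Kcnd2 read 1.83 and 1.56 UMIs per 10000 in F0_8 and F0_9 and 0.662 and 0.705 in F1_1 and F1_mix, a ratio of means of 2.48. In Neuronal Progenitor the levels were 2.98 and 1.86 against 0.356 and 0.546, in Chondrocyte 2.52 and 1.71 against 0.320 and 0.334, and in Neuroectoderm/Glia 2.92 and 4.91 against 1.58 and 1.72. In CNS Neuron they were 0.555 and 0.617 against 0.321 and 0.189. Both founders lay above both F1 suspensions in these 4 types and in Epithelial Cell, Hepatocyte and Midgut, and the ranges overlapped in the other 6 of 13 types with at least 20 cells in each suspension. In Mesodermal Progenitor, for instance, F1_1 had the highest level, 1.60, and F1_mix the lowest, 0.571, but 1 cell held 120 of the 421 UMIs behind the F1_1 level. In Chondrocyte the top cell held 68 of 237, 40 of 157, 12 of 25 and 6 of 29 UMIs in F0_8, F0_9, F1_1 and F1_mix. In CNS Neuron it held 20 of 78, 25 of 102, 7 of 42 and 5 of 33. Without the highest cell of each type and suspension, a choice made after seeing the data, the ratio over the deep types was 2.69.

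In the edgeR quasi-likelihood fit of summed UMIs, Kcnd2 passed the adjusted threshold of 0.05 in 4 of the 12 types where it was tested, each time higher in founders. The fitted log2 difference was 2.68 ± 0.23 (SE) in Chondrocyte, 2.38 ± 0.24 in Neuronal Progenitor, 1.24 ± 0.22 in Neuroectoderm/Glia and 1.22 ± 0.24 in CNS Neuron. The share of all genes tested that was called higher in founders was 0.802% in Chondrocyte, 0.45% in Neuronal Progenitor, 0.656% in Neuroectoderm/Glia and 0.474% in CNS Neuron. Nothing is read from these calls, since the same contrast picked the gene. The highest log2 difference of Kcnd2 that was not called was 1.79 ± 0.32 in Epithelial Cell, which was called by DESeq2 and with no filter on low counts. The lowest that was called was that in CNS Neuron. The call in CNS Neuron was lost with DESeq2 (log2 difference 1.21). A fit with 1 suspension left out has 1 suspension in a generation, so only its effect size is given. Without F0_8, F0_9, F1_1 or F1_mix the log2 difference in CNS Neuron was 1.30, 1.14, 1.62 and 0.85. In Neuroectoderm/Glia these values were 1.57, 0.82, 1.19 and 1.30. The call in Neuroectoderm/Glia was lost with cells limited to a mitochondrial share under 5% (1.22), and that in Chondrocyte with no filter on low counts (2.68).

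Kcnip4 was the other member called, higher in 1 type and lower in another. In Neuronal Progenitor it read 0.443 and 0.323 UMIs per 10000 in founders against 0.123 and 0.104 in F1, a log2 difference of 1.72 ± 0.25. With 1 suspension left out that difference was 1.47 to 1.93. In Chondrocyte it read 0.0955 and 0.0870 against 0.397 and 0.322, a log2 difference of -1.97 ± 0.37, where 0.362% of all genes were called lower. The Chondrocyte value rests on 76 UMIs, and in F1 on 1 cell per suspension, which held 26 of 31 UMIs in F1_1 and 27 of 28 in F1_mix. It is therefore a difference carried by 2 cells, and its call was lost with no filter on low counts (-1.96), while DESeq2 gave no adjusted p. With 1 suspension left out the Chondrocyte difference was -2.11 to -1.81.

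The remaining members were called in no type by edgeR with all 4 suspensions and the filter, or by DESeq2. Dpp6, Dpp10 and Kcnip1 had calls when the filter was dropped. At an unadjusted p under 0.05, Dpp6 was higher in founders in 4 types, Kcnd3 in 2, Kcnip1 and Dpp10 in 1 each and Kcnip3 in 0, and none of them was lower. The share of all pairs that passes this unadjusted threshold is not given here, so no excess is read from these counts. Kcnd3 in Myoblast/Cardiomyocyte had a log2 difference of 2.15 ± 0.51 on 28 UMIs, and Dpp6 in the same type one of 1.97 ± 0.66, where F0_8 alone stood high (0.669 against 0.123, 0.0778 and 0.117 UMIs per 10000). Dpp10 in Midgut had the highest log2 difference of any member pair, 2.70 ± 1.20, on 19 UMIs. Kcnip1 in Neuroectoderm/Glia read 0.828 and 1.41 against 0.475 and 0.919, so the ranges overlapped. Kcnd1 and Kcnip2 did not pass the filter on low counts in any type. Over the 56 pairs of a member and a type that passed, 5 were called higher and 1 lower, where 0.492% and 0.26% of the 99241 pairs of all genes were. Both founders were above both F1 in 21 pairs and below in 1, where this held for 20.8% and 19.8% of all pairs. The median log2 difference was 0.55 over the member pairs and -0.00 over all pairs, and pairs passed the filter partly through the group where they were high. Kcnd2, whose level chose the set, supplied 12 of the 56 pairs, 4 of the 5 higher calls and 7 of the 21 with both founders above. The pooled counts therefore partly restate that choice. The median for Kcnd2 was 1.05, and for the other members tested it ran from 0.03 (Kcnip4) to 0.61 (Dpp10).

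**Figure D4:**
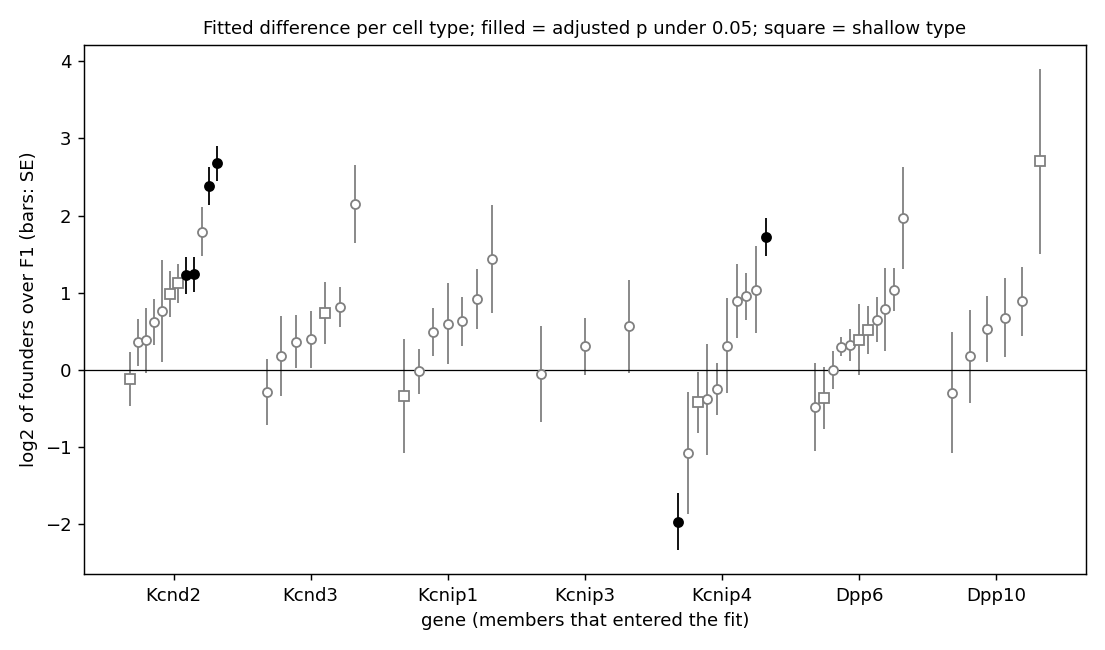
Fitted log2 difference of founders over F1 (y axis, bars are SE) for each member (x axis) in each cell type where it passed the filter on low counts, with filled points for an adjusted p under 0.05 and squares for shallow types. Kcnd2 lies above 0 in 11 of its 12 types, and Kcnip4 has 1 call on each side of 0.

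Other measures moved with generation in the same cells. Genes longer than 100 kb, members left out, took 14.6% and 14.2% of gene UMIs in founders and 12.8% and 12.04% in F1 in Neuronal Progenitor, and the founders lay above F1 in this share in 9 of 9 deep types. The founders had the lower median depth in 7 of them and the higher median mitochondrial share in 5, with the lower share in 0. Per 10000 UMIs of these long genes, the ratio of Kcnd2 was 2.36, and per 10000 of all gene UMIs it was 2.48. EGFP was lower in both founders in Neuroectoderm/Glia, with means of 13.5 against 24.1 UMIs per 10000, and in Neuronal Progenitor, with 10.9 against 16.8. In the other deep types its ranges overlapped, and it was called in no type. In Chondrocyte, neuron markers read 0.817 and 0.935 UMIs per 10000 in founders against 0.550 and 0.552 in F1, and all 6 genes of a cartilage list (Sox9, Col2a1, Acan, Col9a1, Matn1, Sox5) were higher in both founders. The summed level of the cartilage list was above F1 in both founders in 7 of 9 deep types and below it in 1. For mesenchyme markers this was so in 5 and 1 of the 9, and for epithelial markers in 0 and 5. Summed neuron markers were lower in both founders in Neuroectoderm/Glia, at 81.2 and 85.0 against 94.7 and 94.4, and in CNS Neuron, at 73.3 and 68.5 against 74.3 and 78.5. Of the 6 genes, 3 were lower and 1 higher in Neuroectoderm/Glia, and 2 were lower and 1 higher in CNS Neuron. Summed neural progenitor markers were higher in Neuronal Progenitor, at 27.9 and 31.4 against 26.2 and 24.8, with 4 of the 6 genes higher and 0 lower. In Chondrocyte 0 of these genes were higher and 3 lower. The part of these shifts in the Kcnd2 difference was not tested.

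Regional genes of the neural tube were also compared in Neuronal Progenitor. A list of forebrain factors (Emx1, Emx2, Nr2e1, Lhx2, Six3, Otx1, Otx2) summed to 6.92 and 4.35 UMIs per 10000 in founders against 2.97 and 2.99 in F1, with 4 of the 7 genes higher in both founders and 2 lower. Of 8 midbrain and roof genes 1 was higher and 5 were lower, and of 6 ventral genes 0 were higher and 4 lower. Hox genes, which mark hindbrain and spinal cord, read 5.52 and 10.3 against 8.92 and 8.40, so the ranges overlapped. These lists, the cartilage list and the division by Hox UMIs were chosen after seeing the data. Cells of this type with 2 or more Kcnd2 UMIs had more forebrain UMIs than cells without one in each suspension, at 10.3, 7.62, 5.99 and 3.89 against 3.81, 2.53, 2.45 and 2.64 UMIs per 10000. They had fewer Hox UMIs, at 1.85, 6.55, 1.497 and 3.75 against 9.37, 12.2, 9.85 and 9.47. In Neuroectoderm/Glia the order of the forebrain UMIs was opposite in each suspension, at 2.54, 2.97, 2.80 and 1.83 in cells with 2 or more Kcnd2 UMIs against 3.86, 4.12, 3.45 and 2.53 in cells without one. Among cells of Neuronal Progenitor with no Hox UMI, Kcnd2 read 3.73 and 2.79 in founders and 0.565 and 0.793 in F1, a ratio of means of 4.80. Among those with a Hox UMI it read 1.90 and 1.27 against 0.205 and 0.303, a ratio of 6.27. In the whole type the ratio was 5.36. In Neuroectoderm/Glia the order of the 2 sets was not shared by the suspensions, with 2.44, 2.83, 0.622 and 1.92 in cells without and 3.25, 5.80, 2.27 and 1.62 in cells with a Hox UMI. Among Neuroectoderm/Glia cells with a forebrain UMI and no Hox UMI, Kcnd2 read 1.23 and 1.99 in founders and 0.815 and 2.56 in F1, a ratio of 0.955 with overlapping ranges, from 20 to 70 UMIs per suspension. In Neuronal Progenitor the same choice of cells gave a ratio of 4.78.

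**Figure D5:**
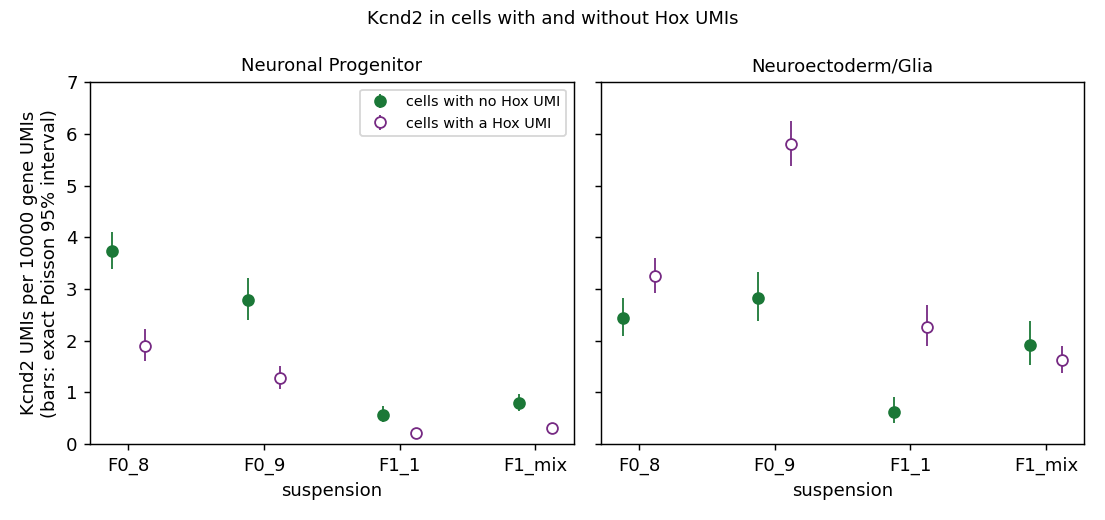
Kcnd2 UMIs per 10000 gene UMIs (y axis) in cells without (filled) and with (open) a Hox UMI, per suspension (x axis), for Neuronal Progenitor and Neuroectoderm/Glia, with exact Poisson 95% intervals. In Neuronal Progenitor the cells without a Hox UMI are higher in all 4 suspensions and the founders are higher in both sets.

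Cells of 1 suspension also differed with Y-linked RNA, a division chosen after seeing the data. Among the F1_mix cells of the deep types with 5000 or more gene UMIs, the 511 with a Y-linked UMI had 0.928 Kcnd2 UMIs per 10000 (95% Poisson interval 0.863 to 0.997) and the 544 without had 0.533 (0.485 to 0.583), at median depths of 14817 and 15049. The gap was seen in Gut Mesenchyme/Amniotic Mesoderm (2.42 and 0.995), Mesodermal Progenitor (0.794 and 0.306) and Neuronal Progenitor (0.790 and 0.371), whereas the intervals overlapped in Epithelial Cell (0.352 and 0.557), Myoblast/Cardiomyocyte (0.474 and 0.440) and Chondrocyte (0.349 and 0.314). They also overlapped in CNS Neuron (0.251 and 0.144), Ependymal Cell (0.298 and 0.183) and Neuroectoderm/Glia (1.92 and 1.60). In F0_8, labelled as 1 founder embryo, 963 such cells had a Y-linked UMI and 99 had none, and they read 2.03 (1.96 to 2.11) and 0.808 (0.644 to 1.0002) at median depths of 13128 and 9637. In its Chondrocyte cells the values were 3.02 and 0.187, in Neuroectoderm/Glia 3.25 and 1.26, whereas in CNS Neuron, at 0.520 (0.401 to 0.663) and 0.781 (0.375 to 1.44), the second from 10 UMIs in 13 cells, the intervals overlapped. A missing Y-linked UMI, the sex of a cell and its embryo cannot be told apart here, and the part of this split in the founder values was not tested. EGFP UMIs in cells with a Kcnd2 UMI were 0.959, 0.965, 0.953 and 0.889 times those given by depth, type and suspension in F0_8, F0_9, F1_1 and F1_mix, each below 1. In cells with 10 or more Kcnd2 UMIs the ratios were 0.861, 0.912, 0.984 and 0.778, so F1_1 lay nearer to 1. No interval is given for these ratios, and no relation to the transgene is read from them.

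Other potassium channel genes were compared as well. Of 35 further voltage-gated potassium channel genes, 16 passed the filter in 87 pairs with a type, of which 3 were called higher in founders and 0 lower by edgeR. This was 3.45% of the pairs, where 0.492% of all pairs were called higher. Both founders were above both F1 in 28 pairs and below in 14, and the median log2 difference was 0.21. At an unadjusted p under 0.05 there were 19 higher and 9 lower, and no excess is read from this, since the share of all pairs at that threshold is not given here. DESeq2 called 2 higher and 0 lower, where it called 429 of the 99241 pairs of all genes in either direction. Kcnq5, which encodes an M-current subunit, was called in Chondrocyte, where it read 2.64 and 2.03 UMIs per 10000 against 1.11 and 0.943, and in Midgut, where F0_9 stood apart at 5.53 against 1.01, 0.497 and 1.01. The third call was Kcnq3 in Neuroectoderm/Glia, named after its value was seen. Kcnq5 had the highest mean level over the deep types of the voltage-gated genes (1.19 ± 0.217, SD over suspensions), followed by Kcnb2, Kcnq1 (0.546 ± 0.0611) and Kcnh7 (0.433 ± 0.0965), levels that are not divided by length. Of 11 auxiliary subunits and Kv4 partners, 6 passed in 52 pairs, with 0 calls by edgeR or DESeq2 and 5 higher and 4 lower at an unadjusted p under 0.05. Nothing is read from these unadjusted counts either, for want of the share over all pairs. The most abundant were Dlg1, Flna, Dlg4 and Ncs1, at mean levels of 1.44, 0.886, 0.368 and 0.323 UMIs per 10000.

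The genes next to Kcnd2 were followed too. Of the 3 nearest protein-coding genes on each side, Cttnbp2, Lsm8 and Ankrd7 before it and Tspan12, Ing3 and Cped1 after it, 5 passed the filter in 45 pairs, with 1 call, where 0.492% of all pairs were called higher. Tspan12, 41.6 kb away, had a median log2 difference of -0.01 over 10 types and Ing3 one of 0.02 over 9. The call was Cttnbp2, 2700 kb away, in Neuroectoderm/Glia, at 1.37 and 1.28 UMIs per 10000 in founders and 0.747 and 0.780 in F1.

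Over the 36 points of deep types and suspensions, the genes with the most similar log2 levels to Kcnd2 were Grm8 (Pearson r = 0.77), a metabotropic glutamate receptor, Macrod2 (0.74), Stau2 (0.73), Kirrel3 (0.72) and Cntn5 (0.69), whose gene lengths ran from 292 to 1998 kb. The nearest member was Kcnd3, at 0.35, and Dpp6 stood at 0.14. After subtraction of each type's mean, the most similar genes were Kat6b (0.76), Dnmt3a (0.75), Ankrd28 (0.75), Rabgap1 (0.75) and Cdk19 (0.74), all of 113 to 173 kb, and the nearest member was Dpp10, at 0.32. These points share 4 suspensions and their depth, so the values are descriptions. After subtraction of type means only differences between suspensions are left, and the difference between generations that chose Kcnd2 is among them.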

How the data were processed

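Single-cell RNA from 4 CellPlex-tagged suspensions of E11.5 mouse embryos was sequenced as 1 gene expression library, beside an oligo library of the tags. The authors aligned reads to GRCm38 with EGFP added, using Cell Ranger (version 7.2.0 in the matrix header), and deposited counts of UMIs per gene and barcode with no normalization, together with a cell table that held the suspension, cell type, UMI count and percent of mitochondrial UMIs of each cell. Per their methods, SoupX (free RNA), DoubletFinder (doublets), RECODE (noise) and Seurat were used before cell types were named. None of these corrections is in the raw counts used. The sources used here do not say whether intronic reads were counted. Of 6006 barcodes in the filtered matrices, the 5678 in the cell table were used, and no further doublet caller was run. Of the cell table's columns, 5 were used and 17 were not.

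Levels are summed UMIs per 10000 gene UMIs, with exact Poisson or Clopper-Pearson 95% intervals that cover counting error only. Founders and F1 were compared with edgeR 4.0.16 (TMM, filterByExpr, quasi-likelihood F test, Benjamini-Hochberg within a type over all genes) on UMIs summed per suspension and type; DESeq2 1.42.0 was an alternative. The code was tested on simulated data. The suspensions are separate embryo preparations, not repeated ones, and with 2 against 2 an exact permutation test of a single value cannot reach 0.05. Likeness used log2(UMIs per 10000 + 0.01) over genes with at least 500 UMIs. The members and lists were chosen with earlier results of these data known. The genes named were all members, other potassium channel genes called in 2 or more types or among the 4 most abundant of their list, the 5 genes most like Kcnd2 before and after subtraction of type means, and its 3 neighbours on each side. The oligo library was not used here. One gene of the forebrain list was left out of it and is not reported here.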

Additional observations from a re-analysis of the deposited data

Results flagged for a closer look

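Kcnip4 had calls of opposite sign in 2 cell types, with a log2 difference of founders minus F1 of 1.72 in Neuronal Progenitor and -1.97 in Chondrocyte, and the difference between the types was not itself tested. The Chondrocyte value is carried by 1 cell in each F1 suspension, with 26 of 31 and 27 of 28 UMIs.

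The 328 barcodes of the suspensions that have no cell type in the deposited table, and that no comparison used, also held members, at levels above what a count of 0 allows: 1.23 UMIs per 10000 gene UMIs for Kcnd2, 1.13 for Dpp6, 0.470 for Kcnip4, 0.306 for Kcnip1, 0.243 for Kcnd3, 0.124 for Dpp10, 0.0622 for Kcnip3 and 0.0226 for Kcnip2. Kcnd1 had 0 of 1767171 gene UMIs there, which allows a level of up to 0.0170 per 10000, taken as 3 counts.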

How the results depend on the processing

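The count of members called between founders and F1, 6 pairs of gene and type, was 12 without a filter on low counts, where 3154 pairs of all genes were called in place of 746. Calls of fits with 1 suspension left out are not counted, since these have 1 suspension in a generation. DESeq2 called 5 member pairs and 429 of all pairs. These counts hold other pairs than the 6: Kcnd2 in Epithelial Cell was gained with DESeq2 and with no filter. The 6 pairs called had the same direction in each alternative that gave them a value. Kcnd2 in Neuronal Progenitor had log2 differences of 1.99 to 2.72 over 8 alternatives. It was called with DESeq2, with no filter, with no TMM scaling and with a mitochondrial share under 5%. Kcnip4 in Chondrocyte ran from -2.11 to -1.81 over 7 alternatives. It was called with no TMM scaling and with a mitochondrial share under 5%, and not with no filter. The ratio of Kcnd2 over the deep types, 2.48, was 2.28 to 2.68 when 1 suspension was left out. It was 1.93 with each cell's Kcnd2 UMIs counted up to 5 and 1.996 without Neuronal Progenitor and Chondrocyte. With only the F1_mix cells that had a Y-linked UMI it was 2.24, and with only those lacking one 2.81. These alternatives were chosen after seeing the data. The share of cells with a Kcnd2 UMI depended on depth: for F0_8 it was 34.9% at full depth and 11.4%, 17.1% and 25.6% after thinning to 1000, 2000 and 5000 gene UMIs. The thinned shares were 11.1%, 16.0% and 24.9% for F0_9, 4.59%, 7.21% and 12.1% for F1_1, then 5.92%, 7.80% and 14.5% for F1_mix. With free RNA at 10% of UMIs subtracted, the mean level over the deep types was 0.113 in place of 0.148 for Kcnd3 and 0.401 in place of 0.546 for Dpp6. Kcnd1 and Kcnip2 were too sparse to compare types. No paired analysis was possible because the suspensions of the 2 generations share no number in the labels.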
